A study of Mus musculus with 24 samples.

Results

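White fat from mice given antimiR-452 was set against white fat from mice given scramblemiR, with 4 libraries in each group and 8 of the 24 libraries of the series in all. Both groups were C57BL/6 mice that had 2 subcutaneous injections of 25 mg/kg of an oligonucleotide carrying locked nucleic acid (LNA) bases. In the antimiR-452 group the oligonucleotide was complementary to miR-452, and in the scramblemiR group its sequence was scrambled, so injection and LNA chemistry were common to both groups. The labels name neither the white depot nor the sex or age of the mice, nor the interval between injection and collection, and they do not say that each library came from its own mouse, so the p-values here measure the spread between these libraries. The comparison covers every gene whose deposited mean normalized count over both groups was at least 10, which held for 17824 of 29079 genes in the table. Markers of mature adipocytes fitted the labelled tissue: in the authors' deposited table Adipoq, which encodes adiponectin, averaged 62695 normalized counts with antimiR-452 and 77808 with scramblemiR, and the lipid droplet coat gene Plin1 averaged 47408 and 57934.

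A microRNA lowers the output of messenger RNAs whose 3′ untranslated region (UTR) pairs with its seed, and an LNA oligonucleotide complementary to the microRNA is meant to relieve that repression. miR-452 and miR-224 are processed from an intron of Gabre, which encodes a subunit of the receptor for the transmitter GABA. Mature microRNAs lack a poly(A) tail and were not captured by the oligo-dT selection used for these libraries, so loss of miR-452 itself could not be read from the data. The mature sequences are shown from RefSeq (GRCm38.p6) with the seed, bases 2 to 8, in capitals, since a gene that responds directly would carry the complement of these bases.
mmu-miR-452-5p: uGUUUGCAgaggaaacugagac
mmu-miR-452-3p: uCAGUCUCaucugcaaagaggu
mmu-miR-224-5p: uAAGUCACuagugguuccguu
The 3 seeds differ from one another. All 3 microRNAs lie on the minus strand of chromosome X, at chrX:72262271-72262292, chrX:72262235-72262256 and chrX:72261085-72261105. Gabre (ENSMUSG00000031340, chrX:72255999-72274803, minus strand, GRCm38 with GENCODE M21 annotation) spans them.

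Sites in the 3′ UTR are shown for the 5 genes with a full 8-base match of miR-452-5p and the smallest deposited p, on the transcript's strand and with the match in capitals.
Hnf4a: tgcaccttcctgtggttgTGCAAACAtcac
Sall1: agtgctataaccttgcttTGCAAACAgagt
Dab2: cttgtgcacttttctgtaTGCAAACAaatc
Ccl28: ctaaatcatttgaaaagtTGCAAACAacat
Shank2: acttgctgtctttatttcTGCAAACAgatt
In GRCm38 these stretches lie at chr2:163572738-163572767 (plus strand), chr8:89028191-89028220 (minus strand), chr15:6440645-6440674 (plus strand), chr13:119651535-119651564 (plus strand) and chr7:144421722-144421751 (plus strand). Each is a match of letters and not a tested site.

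The table holds group means, and the read numbers of single libraries were recovered from them for 15493 of the 17824 genes, 86.92%. None of the 1278 most abundant genes could be resolved in the antimiR-452 libraries, while the scramblemiR libraries were resolved for every gene and held between 22175430 and 27935908 reads in genes. Libraries are numbered within a group by descending size factor and not by the numbers of the sample titles. A pair of libraries stood apart from its own group. In antimiR-452 library 4, 501 genes were at least 8-fold below the median of the other 7 libraries, against 17 to 42 genes in the other antimiR-452 libraries. ScramblemiR libraries 1 and 3 had 406 and 525 such genes and libraries 2 and 4 had 106 and 116, so that library 4 was apart from its own group and not from all controls. In scramblemiR library 2, 1176 genes were at least 8-fold above the median of the other 7, against 7 to 76 in the other scramblemiR libraries.

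Neither test called a gene at the adjusted threshold of 0.05. The authors' deposited table called none of the 17824 genes (0%), and its lowest adjusted p was 0.148. At an unadjusted p under 0.05 that table had 636 genes with a higher mean in the antimiR-452 group (3.57%) and 25 with a lower mean (0.14%). The limma test on recovered libraries likewise called 0 of 15493 genes (0%), with a lowest adjusted p of 0.997. Without adjustment it had 583 genes higher (3.76%) and 126 lower (0.813%) at p under 0.05. The median log2 ratio over all genes with a mean of at least 10 was -0.04, with 7697 genes above 0 and 10127 below. The antimiR-452 mean lay within the range of the 4 scramblemiR libraries for 14076 genes (79%), above it for 2618 and below it for 1130.

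**Figure D1:**
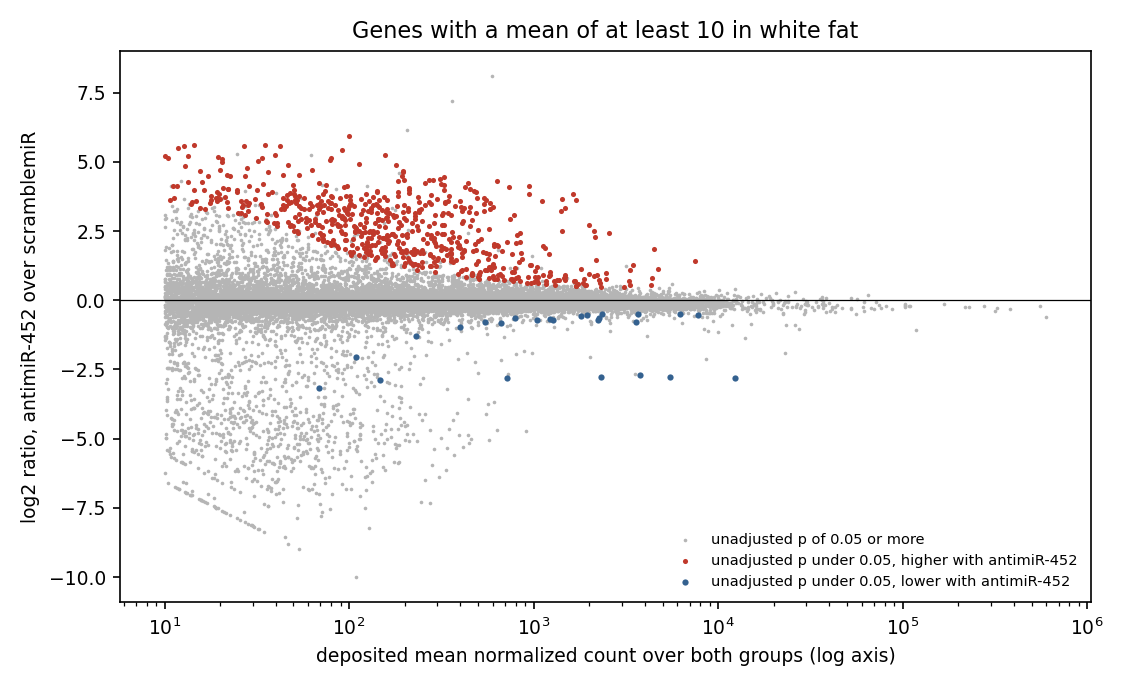
Log2 ratio of group means, antimiR-452 over scramblemiR, against the deposited mean normalized count on a log axis, 1 point for each gene with a mean of at least 10; 33 genes at 0 in 1 group are not drawn. The 636 genes with a higher mean at an unadjusted p under 0.05 form a cloud up to a log2 ratio near 6, whereas of the genes at -2 or less all but 8 had a larger p.

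Several of the 12 higher genes of smallest p are typical of ciliated or tubular epithelia. They include Dnah5, Dnah9 and Dnah11, which encode heavy chains of the dynein motors that bend motile cilia, and Rsph4a, a component of the radial spokes in the same organelle. Pkhd1 encodes fibrocystin of tubular cells, Slc9a3 a sodium-proton exchanger of absorptive brush borders, Kl the hormone co-receptor Klotho and Dsp the desmosome protein desmoplakin. The other 4 of the 12 were the glycosyltransferase gene B4galnt2, the steroid reductase gene Srd5a2, which converts testosterone to dihydrotestosterone, and Fam216b and Tmem132b. Their mean normalized counts were 19.9 to 60.9 times as high with antimiR-452 as with scramblemiR, and the authors' deposited table gave them adjusted p between 0.148 and 0.157.

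In every one of these 12 genes the difference lay in 3 of the antimiR-452 libraries. Dnah5 had 749, 982.1, 773.9 and 0 normalized counts in antimiR-452 libraries 1 to 4, against 18.6, 4.732, 4.201 and 85.76 in scramblemiR libraries 1 to 4. Dsp had 1473, 1857, 1452 and 23.31 in the antimiR-452 libraries, against 35.42, 30.28, 21.01 and 154.1 in the scramblemiR libraries. B4galnt2 had 343.7, 231, 213.3 and 0, against 1.771, 1.893, 0 and 9.271. Libraries 1 to 3 were far above every scramblemiR library in each gene, and library 4 was among or below them.

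Slc9a3 and Kl followed the same order. Slc9a3 had 296.6, 223.4, 196.4 and 0 normalized counts in the antimiR-452 libraries, against 0, 2.839, 2.101 and 11.59 in the scramblemiR libraries. Kl had 488.6, 582.8, 435 and 9.992, against 8.856, 12.3, 9.453 and 44.04. Over the 12 genes library 4 held 0% to 1.99% of the mean of antimiR-452 libraries 1 to 3. A count of 0 in library 4 allows up to 3.33 normalized counts there, for counting error only. ScramblemiR library 4 was the highest control in each of the 12 and held 3.53% to 12.7% of that mean.

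**Figure D2:**
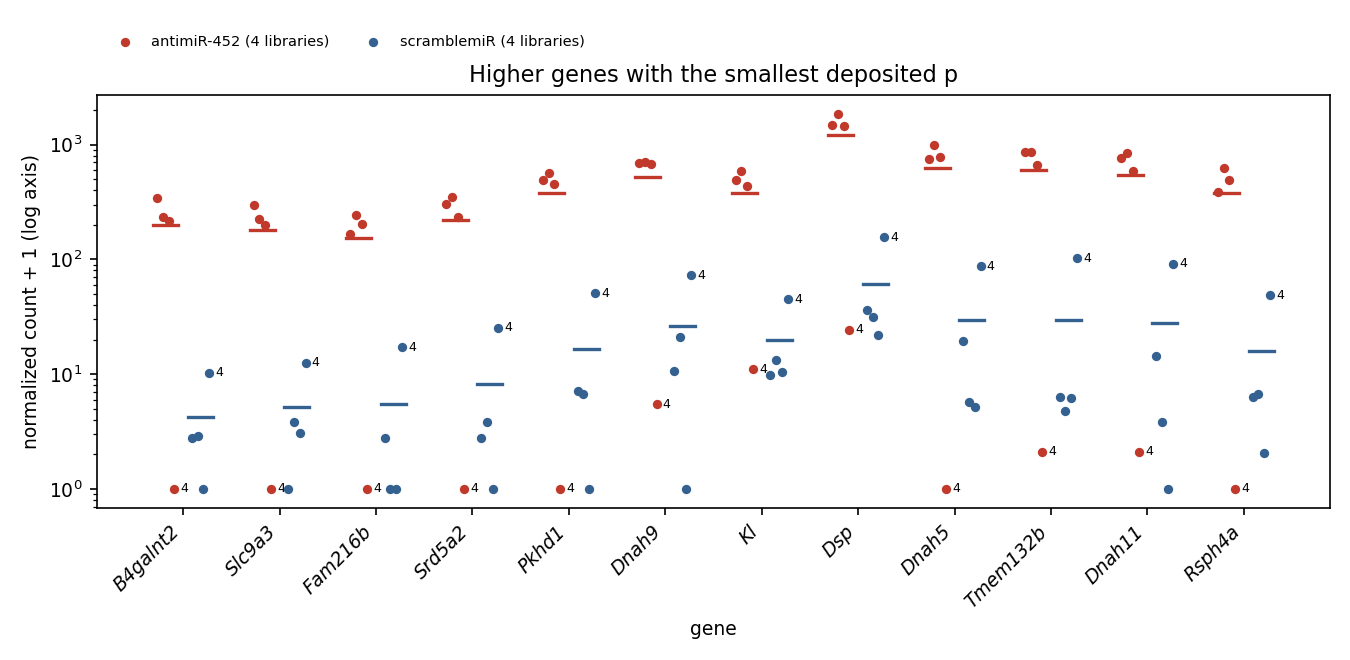
Normalized count + 1 on a log axis for the 12 higher genes with the smallest deposited p; each point is 1 library, bars are group means of the same values, antimiR-452 stands left of scramblemiR for each gene, and 4 marks library 4 of each group. For Dnah5, antimiR-452 libraries 1 to 3 stand at 749 to 982.1 and library 4 at 0, below the scramblemiR libraries at 4.201 to 85.76.

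The split held for nearly all genes of that side. Of the 636 genes, 587 were resolved in every library. In 584 of them antimiR-452 libraries 1 to 3 were each above all 4 scramblemiR libraries, and in 585 library 4 was the lowest antimiR-452 library. Library 4 was below the highest scramblemiR library in 566 genes and below the lowest in 151. The groups did not overlap in 20, set against 0.968% of all 15493 resolved genes on that side. The genes were picked for a higher mean and a small p on these same values, so the counts describe them and test nothing. With all libraries limma called none of the 12 genes (adjusted p 0.997 each). Without antimiR-452 library 4 it called 522 of 15493 genes, 520 higher (3.36%) and 2 lower (0.0129%), with a median log2 change of 2.72 for the 520. All 12 genes were among them, at adjusted p of 0.00548 to 0.0434. They were picked for a small p on these same values, and library 4 is the low one in each, so these calls are no separate support. The same limit applies to the calls without library 4 given below. Leaving out any other single library called 0 genes.

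The epithelial gene lists had the same split of libraries. Of 25 genes of simple epithelium and cell junctions, 22 had a log2 ratio above 0 (median 2.49, against -0.04 for all genes) and 17 had a higher mean at an unadjusted p under 0.05, set against 3.57% of all genes. Cdh1, the adherens junction protein E-cadherin, had 749.8, 779.6, 690.5 and 6.661 normalized counts with antimiR-452, against 20.37, 30.28, 6.302 and 118.2 with scramblemiR. The desmosomal cadherin gene Dsg2 had 529.1, 580, 471.9 and 6.661, against 12.4, 12.3, 4.201 and 66.06. The summed level of the 23 resolved members was 12522, 18017, 15281 and 4346 with antimiR-452, against 3390 to 5249 with scramblemiR. Limma called 12 of these genes without library 4, where it called 3.36% of all genes higher, and 0 with it. No resolved gene of the list was at 0 in antimiR-452 libraries 1 to 3, nor in scramblemiR library 4. In antimiR-452 library 4 there were 3 at 0, and in scramblemiR libraries 1 to 3 there were 2, 1 and 5.

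The motile cilium list held 21 of 23 genes above 0 (median 1.5) with 8 of a higher mean at an unadjusted p under 0.05, set against 3.57% of all genes. Foxj1, the master transcription factor of motile cilia, had 1767, 2945, 2383 and 7.771 normalized counts with antimiR-452, against 15.94, 172.2, 4.201 and 308.3 with scramblemiR. The list summed to 10411, 14892, 12015 and 899.2 with antimiR-452 and to 930.7, 7555, 939 and 2401 with scramblemiR. Here scramblemiR library 2 was also high: it was the highest control for 17 of the 23 genes, and its summed level of male germ cell genes was 42265, against 289.6 to 571.3 in the other scramblemiR libraries. Without it the median of the list was 3.45 and all 23 genes lay above 0. Of 16 transporting tubule epithelium genes 15 lay above 0 (median 1.70, or 2.77 without scramblemiR library 2), 9 with a higher mean at an unadjusted p under 0.05, set against the same 3.57%. Lrp2, the endocytic receptor megalin, averaged 3456 with antimiR-452 and 519.2 with scramblemiR in the authors' deposited table, where its adjusted p was 0.183. The 14 resolved members summed to 7314, 10151, 8136 and 2942 with antimiR-452, against 2177 to 3815 with scramblemiR. Neither epithelial cells nor other cells were counted in these samples, and the part of cell makeup in these ratios was not tested. In bulk tissue, fewer cells of a type and less RNA per cell cannot be told apart.

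Genes whose 8 libraries did not overlap were few. Of 15493 genes, 150 were higher in every antimiR-452 library than in any scramblemiR library (0.968%) and 111 were lower (0.716%). For a gene with no difference, 4 against 4 libraries separate fully, either way, with a probability of 0.0286. The 2 shares together lie below that, so separation alone does not mark a gene as changed. Their median log2 ratios were 0.669 and -0.524, and 52 of the higher and 19 of the lower genes differed at least 2-fold. Atp6v0a4 (ENSMUSG00000038600, chr6:38048483-38124586, minus strand), a subunit of the proton pump of acid-secreting epithelia, had 321.8, 517.2, 326.2 and 192.1 normalized counts with antimiR-452, against 44.28, 38.8, 112.4 and 67.22 with scramblemiR. Its mean was 339 ± 134 with antimiR-452 and 65.7 ± 33.5 with scramblemiR (SD, n = 4 each), 5.17-fold higher, with a limma log2 change of 2.39 ± 0.398 (SE) and an adjusted p of 0.997 (0.0141 without antimiR-452 library 4). Unlike in the 12 genes above, library 4 was above all controls, as in any gene picked for not overlapping. It stood at 49.4% of the mean of libraries 1 to 3.

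The other 5 higher genes chosen by the same rule have unlike functions. Dnajc6, which encodes auxilin of clathrin uncoating, had 375.7, 274.8, 348.4 and 177.6 normalized counts with antimiR-452, against 89.44, 124, 110.3 and 71.85 with scramblemiR. Cbs, which makes cystathionine from homocysteine, had 355.5, 403.1, 382.2 and 304.2, against 257.7, 176, 174.4 and 207.4. The clock transcription factor gene Npas2 had 131.4, 100.8, 107.7 and 76.6, against 36.31, 32.17, 24.16 and 55.63. Aig1, an androgen-induced hydrolase gene, and 1500015O10Rik were 2.05-fold and 4.03-fold higher. In each of the 6 genes library 4 was the lowest antimiR-452 library. That it was above every control follows from the rule by which they were chosen.

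On the lower side the genes chosen by this rule were red cell genes, described next, and Fdft1, Irs3 and Apol11b. Fdft1, squalene synthase of the cholesterol pathway, had 640.3, 849, 953.4 and 689.4 normalized counts with antimiR-452, against 1232, 1329, 1163 and 1464 with scramblemiR, a limma log2 difference of -0.74 ± 0.151 (SE) at an adjusted p of 0.997. Irs3, an insulin receptor substrate of rodent adipocytes, had 660.5, 694, 807.7 and 769.3, against 1140, 930.2, 1109 and 1060. Apol11b, of the apolipoprotein L family, had 2.527, 2.852, 3.167 and 5.551, against 26.57, 35.96, 14.7 and 24.34. A count of 0 allows 2.53 to 3.33 normalized counts in the antimiR-452 libraries, so Apol11b was near the limit of depth there. Its unadjusted p in the authors' deposited table was 0.0948. For each of these genes a two-sided exact permutation test gave p = 0.0286, the smallest possible with 4 against 4 libraries. The genes were picked for not overlapping, so this p is fixed by that choice. Without antimiR-452 library 4, limma gave adjusted p of 0.0673 for Fdft1, 0.0661 for Irs3 and 0.0518 for Apol11b.

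**Figure D3:**
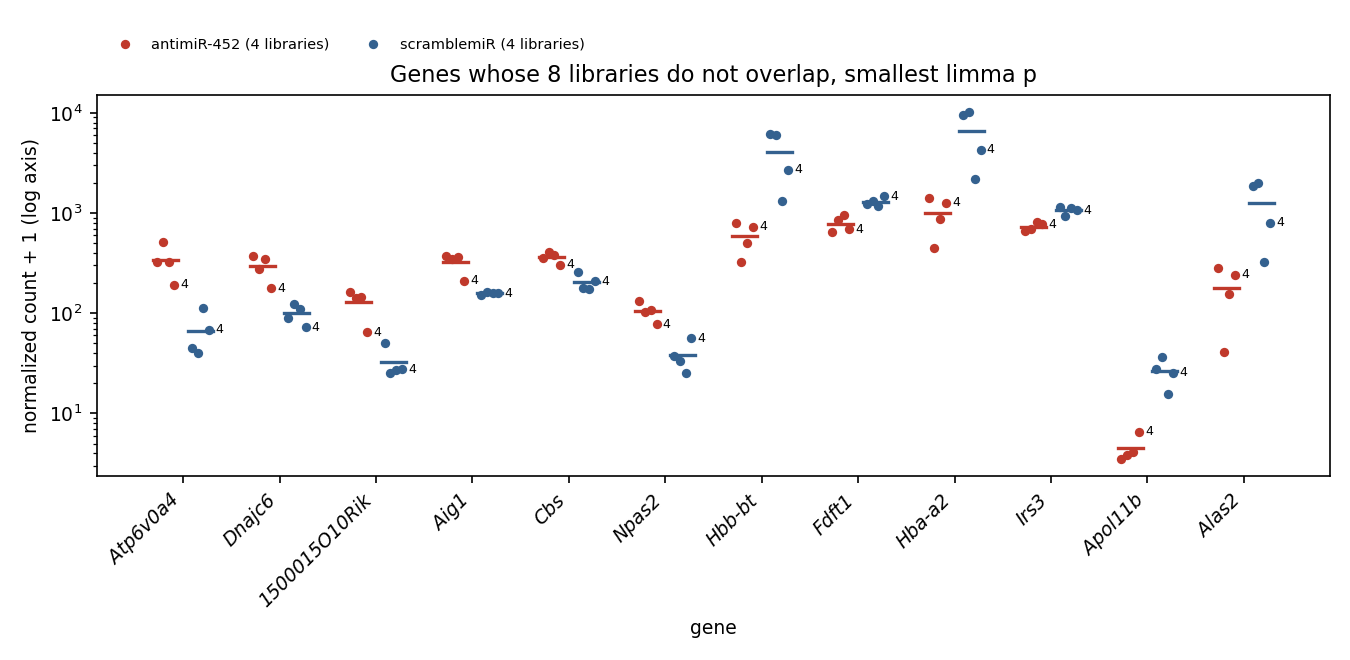
Normalized count + 1 on a log axis for the 6 higher and 6 lower genes with the smallest limma p among genes whose libraries do not overlap; each point is 1 library, bars are group means of the same values, antimiR-452 stands left of scramblemiR, and 4 marks library 4 of each group. For Atp6v0a4 the antimiR-452 libraries run from 192.1 to 517.2, above the scramblemiR libraries at 38.8 to 112.4.

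Red cell genes made up 7 of the 12 lower genes with the smallest deposited p. All 9 erythroid genes lay below 0, with a median log2 ratio of -2.80, and 8 of them had an unadjusted p under 0.05, set against 0.14% of all genes on that side. Hbb-bt, a beta globin gene (ENSMUSG00000073940, chr7:103812524-103813996, minus strand), had 799.5, 325.2, 504.7 and 727.2 normalized counts with antimiR-452, against 6117, 5994, 1305 and 2700 with scramblemiR. The alpha globin gene Hba-a2 had 1419, 442.1, 861.5 and 1271, against 9621, 10145, 2205 and 4258. Alas2, the first enzyme of haem synthesis in erythroid cells, had 283.1, 39.93, 154.1 and 240.9, against 1874, 2003, 320.4 and 798.5. In these 3 genes, which were picked for not overlapping, all antimiR-452 libraries, library 4 included, were below all scramblemiR libraries.

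Among the other resolved members Slc4a1 overlapped. This anion exchanger gene had 32.01, 4.754, 5.279 and 13.32 normalized counts with antimiR-452, against 139, 144.8, 8.403 and 202.8 with scramblemiR. ScramblemiR library 3 was the lowest control for all 9 genes, and the 7 resolved members summed to 1290 to 3104 with antimiR-452, against 19326, 19879, 4402 and 8802 in scramblemiR libraries 1 to 4. Hba-a2 and Hbb-bt were the only lower genes that limma called without antimiR-452 library 4, at adjusted p of 0.0466 and 0.0427. Their near-identical partners Hba-a1 and Hbb-bs averaged 1412 and 3074 normalized counts with antimiR-452, against 9579 and 21702 with scramblemiR, in the authors' deposited table, and reads may have been divided between the copies of each pair, so single members are uncertain. The amount of blood in each piece of tissue was not measured, and its part in these values was not tested.

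The other 5 of the 12 lower genes were Fdft1, 2 further metabolic genes, A530016L24Rik and Odf3l1. Gpd2, the mitochondrial glycerol phosphate dehydrogenase, averaged 1712 normalized counts with antimiR-452 and 2774 with scramblemiR in the authors' deposited table (p 0.0153, adjusted p 1). Ormdl3, a brake on sphingolipid synthesis, averaged 6324 and 9203 there (p 0.0209, adjusted p 1). A530016L24Rik averaged 2652 and 4526 (p 0.0156, adjusted p 1, in the authors' deposited table), and Odf3l1 had 34.54, 36.13, 82.35 and 17.76 with antimiR-452, against 112.5, 243.2, 55.67 and 294.4 with scramblemiR. The first 3 could not be resolved in the antimiR-452 libraries, and Odf3l1 overlapped.

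The largest negative ratios belonged to a single scramblemiR library. At a log2 ratio of -2 or less there were 882 genes, of which 8 had an unadjusted p under 0.05. In 782 of the 882, scramblemiR library 2 held over 90% of the counts of its group, and 52 of the 882 stayed at -2 or less once it was left out. Male germ cell genes were the clearest list: 23 of 23 lay below 0, with a median of -4.68. The 22 resolved members summed to 42265 in scramblemiR library 2, to 289.6, 477.9 and 571.3 in the other scramblemiR libraries and to 1141, 784.4, 379 and 260.9 with antimiR-452. Without library 2 the median of the list turned to 2.31, with 22 of 23 genes above 0. Sycp3, a protein of meiotic chromosomes, was the member with an unadjusted p under 0.05 (p 0.0295 in the authors' deposited table), at 52.23, 231, 70.74 and 188.7 with antimiR-452, against 215.2, 260.2, 400.2 and 436.9 with scramblemiR.

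Genes of adipocyte function had lower means, within the range of the controls. All 20 adipocyte identity genes lay below 0 (median -0.30), all 38 genes of oxidative phosphorylation (median -0.26), 19 of 20 of the citric acid cycle (median -0.22) and 14 of 17 of fatty acid synthesis (median -0.76), and no gene among these had an unadjusted p under 0.05 on the lower side. The antimiR-452 mean fell inside the range of the 4 scramblemiR libraries for 18 of 20, 38 of 38, 19 of 20 and 16 of 17 genes of these lists, against 79% of all genes. Fasn, fatty acid synthase, averaged 75507 normalized counts with antimiR-452 in the authors' deposited table, against 203151, 23867, 109401 and 304861 in scramblemiR libraries 1 to 4. Elovl6, an elongase of newly made fatty acids, had 637.8, 946.9, 913.2 and 642.8 with antimiR-452, against 2806, 237.5, 1163 and 8850 with scramblemiR. For Elovl6 the 4 antimiR-452 libraries all fell between the lowest and the highest control.

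The controls had a common order in the metabolic lists. Among the adipocyte identity genes only the low end of this order was shared. There scramblemiR library 2 was the lowest control in 18 of 20, while library 4 was the highest in 8 of 20. ScramblemiR library 4 was the highest control and library 2 the lowest for 38 of 38 oxidative phosphorylation genes, and likewise for 16 and 15 of 17 fatty acid synthesis genes. Atp5b, a subunit of ATP synthase, averaged 37883 with antimiR-452 in the authors' deposited table, against 51966, 28108, 44022 and 57402 in scramblemiR libraries 1 to 4. Uqcrq, a subunit of the cytochrome bc complex, had the lowest ratio of the list, -0.42, with an antimiR-452 mean of 3448 in the authors' deposited table, against 4124, 2575, 3556 and 8182. Without scramblemiR library 4 the median of oxidative phosphorylation was -0.04, with 9 of 38 genes above 0, and that of fatty acid synthesis was -0.29. Without library 2 the same medians were -0.43 and -0.98. The citric acid cycle had medians of -0.09 without library 4 and -0.40 without library 2. Among the 11 resolved oxidative phosphorylation genes, antimiR-452 library 1 was the lowest of its group in all 11, with a summed level of 10151, against 14930 to 15416 in the other antimiR-452 libraries and 11151 to 24285 in the scramblemiR libraries.

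Fads2 went against its list. This desaturase of polyunsaturated fatty acids had 1387, 1384, 1158 and 280.9 normalized counts with antimiR-452, against 256.8, 341.6, 219.5 and 398.7 with scramblemiR. Its log2 ratio was 1.79, at an unadjusted p of 0.00176 in the authors' deposited table, and libraries 1 to 3 were above all controls while library 4 was among them, as in the epithelial genes. Scd1, the stearoyl desaturase and one of the most abundant transcripts of this fat, averaged 479338 with antimiR-452 in the authors' deposited table, against 817757, 251350, 650508 and 1178450 in scramblemiR libraries 1 to 4. The abundant genes Car3, a carbonic anhydrase, and Lpl, lipoprotein lipase, had unadjusted p of 0.923 and 0.835 in the authors' deposited table, with log2 ratios of -0.20 and -0.30.

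Cholesterol synthesis had 18 of 22 genes below 0 (median -0.41). Of the 22, 1, Fdft1, had an unadjusted p under 0.05, set against 0.14% of all genes on the lower side. ScramblemiR library 4 was the highest control for 20 of the 22, and without it the median was -0.02 with 9 genes above 0. Insig1, which holds back activation of the pathway's transcription factors, had 1282, 888.9, 1558 and 1074 normalized counts with antimiR-452, against 1962, 987, 1064 and 4158 with scramblemiR. Srebf2, the gene of the main transcription factor of the pathway, had 1869, 1901, 1869 and 1235, against 1108, 1490, 1165 and 1070, and was called by limma without antimiR-452 library 4 (adjusted p 0.0458). Insig1 and Srebf2 overlapped between the groups. Fdft1 did not, but it was named above among genes picked for not overlapping.

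Receptors and signalling genes were close to the middle of all genes, with exceptions that again split by library. Of 22 genes of insulin signalling and glucose transport, 6 lay above 0 (median -0.03). The list held 1 gene of a higher mean at an unadjusted p under 0.05, set against 3.57% of all genes. That gene, the insulin-like growth factor receptor Igf1r, had 2083, 2381, 1956 and 982.5 normalized counts with antimiR-452, against 1034, 1152, 1082 and 1139 with scramblemiR. The glucose transporter gene Slc2a4 had the lowest log2 ratio of the list, -0.55, at an unadjusted p of 0.106 in the authors' deposited table. Libraries 1 to 3 were above all controls for Igf1r and library 4 below all of them, and limma called it without library 4 (adjusted p 0.00835).

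Steroid receptors and steroid enzymes had 6 of 12 genes above 0 (median 0.06, or -0.03 without scramblemiR library 2). Esr1, the oestrogen receptor alpha gene, averaged 2753 with antimiR-452 in the authors' deposited table, against 1593, 1074, 1645 and 1619 in scramblemiR libraries 1 to 4, with a log2 ratio of 0.89 and an unadjusted p of 0.0088 there. Its antimiR-452 libraries could not be resolved. Srd5a2 of the same list had 305, 345.1, 231.2 and 0 with antimiR-452, against 1.771, 2.839, 0 and 24.34 with scramblemiR, so that its difference was again that of libraries 1 to 3.

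The host gene of the microRNA overlapped between the groups, and its processing machinery lay close to the middle of all genes. Gabre had 189.6, 144.5, 171 and 145.4 normalized counts with antimiR-452, against 147, 139.1, 204.8 and 118.2 with scramblemiR, means of 162.6 ± 21.8 and 152.3 ± 37.1 (SD, n = 4 each; two-sided exact permutation p = 0.571). Of 13 genes of microRNA processing and the Argonaute complex, 9 lay above 0 (median 0.08) and none had an unadjusted p under 0.05. Ago4, an Argonaute that carries microRNAs to their targets, had 338.7, 290, 308.3 and 312, against 233.8, 266.9, 242.6 and 286.2, and was the 1 member of 12 resolved whose groups did not overlap, set against 0.968% of all genes on that side. The Wnt pathway genes and targets reported for miR-452 had 10 of 17 above 0 (median 0.07), 0 at an unadjusted p under 0.05. Sfrp1, a secreted Wnt inhibitor, had the highest ratio of them, 1.17, at an unadjusted p of 0.0501 in the authors' deposited table. Bmi1, a Polycomb protein gene reported as a target, had 679, 976.4, 991.4 and 1090, against 1304, 1049, 1073 and 1198, with a log2 ratio of -0.31. Of the 17 genes, only Bmi1, Fzd4 and Lrp6 had a miR-452-5p seed match in the 3′ UTR by the search described below. The median of this list is therefore mostly that of genes without a match.

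Interferon, cell cycle and immediate early lists had medians below 0, and heat shock chaperones lay above the median of all genes. Interferon response genes had 10 of 26 above 0 (median -0.10), and Rsad2, an antiviral enzyme gene with the smallest p of the list, had 355.5, 174, 368.5 and 278.7 normalized counts with antimiR-452, against 534.9, 593.3, 305.7 and 637.4 with scramblemiR. Cell cycle genes had 2 of 20 above 0 (median -0.56), with medians of -0.29 without scramblemiR library 2 (4 above 0) and -0.27 without scramblemiR library 4 (8 above 0). For Ccnb2, a mitotic cyclin gene, the antimiR-452 libraries had 40.44, 48.49, 42.23 and 16.65, against 26.57, 283, 37.81 and 142.5, and scramblemiR library 2 or 4 was the highest control in all 20. Immediate early genes had 6 of 20 above 0 (median -0.14), heat shock chaperones 12 of 14 (median 0.16) and collagens and matrix 16 of 27 (median 0.05). Without scramblemiR library 2 the immediate early median was 0.14 with 14 genes above 0, and without scramblemiR library 4 the collagen median was -0.04 with 12 above 0. The chaperone gene Hsph1 (log2 ratio 1.03) and the matrix proteoglycan gene Lum (0.54) had unadjusted p of 0.000571 and 0.0416 in the authors' deposited table. Each was the 1 member of its list, of 14 and 27 genes, below 0.05, set against 3.57% of all genes with a higher mean. Of 9 thermogenic genes 3 lay above 0 (median -0.33, or -0.69 without scramblemiR library 2). Ucp1, the uncoupling protein of brown and beige fat, had 1.685, 5.704, 3.167 and 2.22, against 179.8, 5.678, 1.05 and 12.75, a ratio that rested on scramblemiR library 1.

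Markers of other cell types set single libraries apart in both groups. Skeletal muscle genes had 14 of 15 above 0 (median 3.08), and the resolved members summed to 551, 485.8, 13367 and 748.3 with antimiR-452, against 613.4 to 1000 with scramblemiR. Myh4, a fast muscle myosin gene, had 4737 normalized counts in antimiR-452 library 3 and 0 to 7.085 in each of the other 7 libraries. Lymphocyte genes had 12 of 19 above 0 (median 0.20), and without scramblemiR library 2 the median was 1.34 with 18 above 0. They summed to 3385 in antimiR-452 library 2 and 2793 in scramblemiR library 2, against 338.9 to 576.3 in the other 6 libraries. Igkc, the kappa light chain of antibodies, averaged 3236 with antimiR-452 in the authors' deposited table, against 397.6, 54319, 560.9 and 392.9 in scramblemiR libraries 1 to 4. Of the epididymis list, Crisp1, a sperm-coating protein gene, had 2798, 94.12, 57.01 and 11.1 with antimiR-452, against 44.28, 499.7, 2.101 and 3.477.

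Immune and stromal lists differed less between the groups. Macrophage genes had 11 of 20 above 0 (median 0.01), endothelial genes 3 of 15 (-0.11), stromal progenitor genes 6 of 14 (-0.01), mesothelial genes 3 of 12 (-0.26) and Schwann cell and nerve genes 4 of 10 (-0.13). Without scramblemiR library 2 the endothelial and stromal medians were 0.04 and 0.08, with 11 and 8 genes above 0. Without scramblemiR library 4, where mesothelial genes summed to 2924 against 6720 to 10573 in the other scramblemiR libraries, the mesothelial median was -0.59. The mesothelial list held 2 of 12 genes with a higher mean at an unadjusted p under 0.05, set against 3.57% of all genes. They were the keratin genes Krt8 and Krt18, which simple epithelia also express. Krt8 had 1217, 2326, 1899 and 264.2 normalized counts with antimiR-452, against 103.6, 183.6, 272 and 492.5 with scramblemiR, again split between libraries 1 to 3 and library 4. All 8 mast cell genes lay above 0 (median 0.50). Among them Hdc, the histamine-forming enzyme gene, had 535.8, 1021, 846.7 and 75.49 normalized counts with antimiR-452, against 62.88, 281.1, 95.58 and 210.9 with scramblemiR, and an unadjusted p of 0.018 in the authors' deposited table. The tryptase gene Tpsb2 did not follow Hdc, at 310.9, 23.77, 282.9 and 98.8, against 96.53, 204.4, 143.9 and 81.12. Of 9 smooth muscle and pericyte genes 7 lay above 0 (median 0.32), with medians of 0.93 without scramblemiR library 2 and 0.17 without scramblemiR library 4. Kcnmb1, a potassium channel subunit gene of smooth muscle, had 192.9, 191.1, 192.2 and 5.551, against 13.28, 17.03, 7.352 and 20.86, the same split of libraries as in the epithelial genes.

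**Figure D4:**
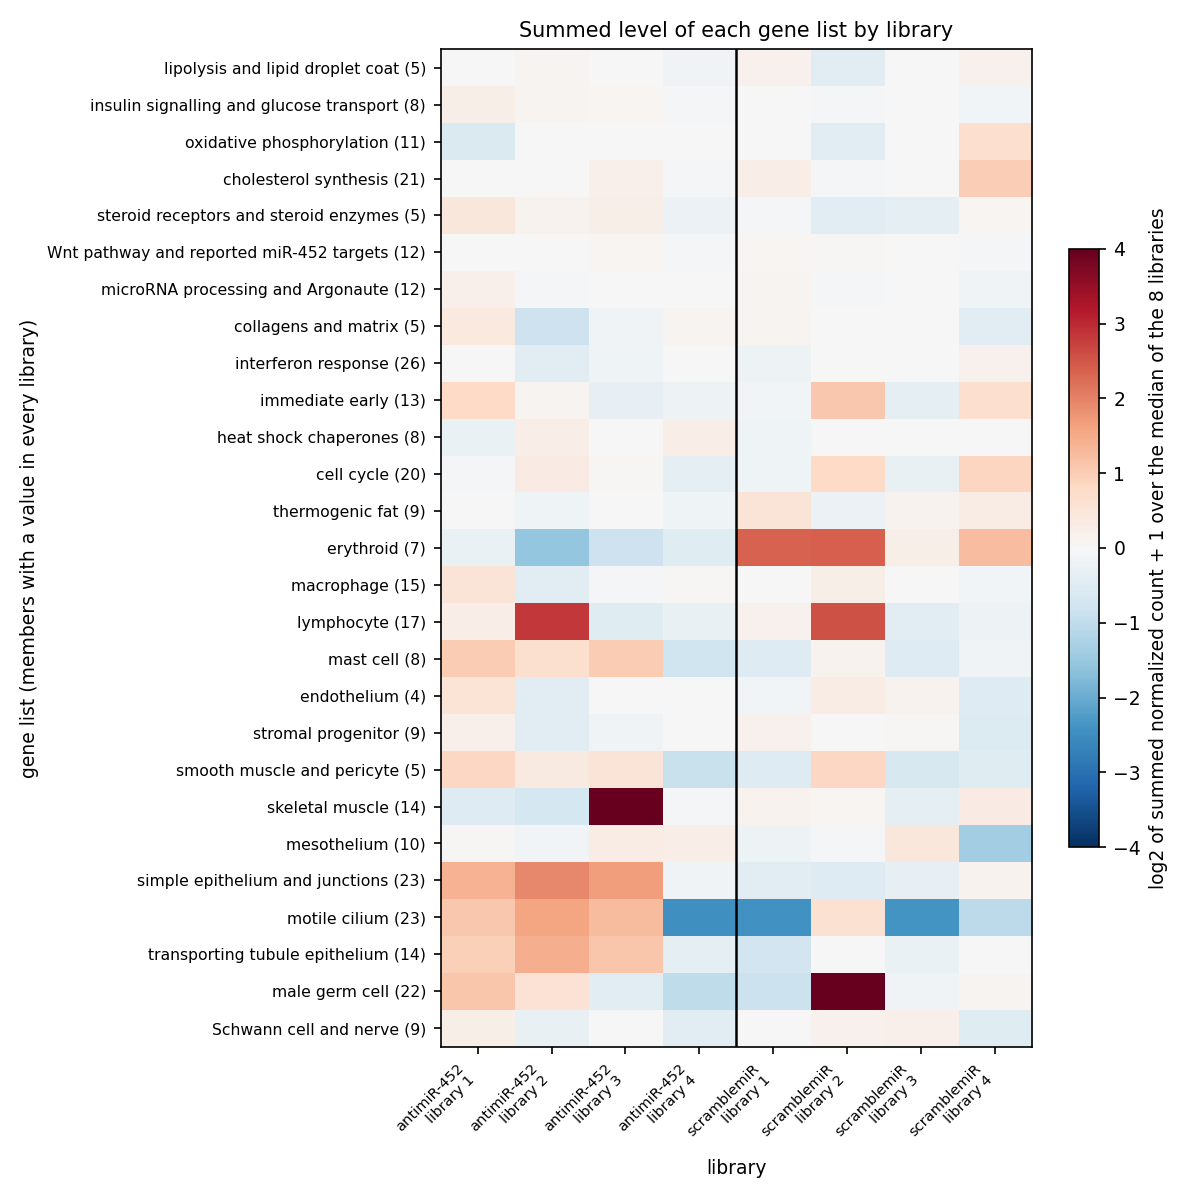
Summed normalized count of each gene list in each library, as log2 of the sum + 1 over the median of the 8 libraries, for lists with at least 4 members resolved in every library (their number in brackets); antimiR-452 libraries stand left of the line and scramblemiR libraries right of it, and the colour scale ends at -4 and 4. The motile cilium list sums to 10411 to 14892 in antimiR-452 libraries 1 to 3 and to 899.2 in library 4, and the erythroid list is below every scramblemiR library in all 4 antimiR-452 libraries.

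Genes with a miR-452-5p seed match did not stand out as a class. The transcript strand of the longest 3′ UTR of each gene was searched for TGCAAACA (8mer), and failing that for TGCAAAC (7mer-m8) or GCAAACA (7mer-A1), both of which lie within the 8mer. Of all 3′ UTRs, 3.893% held the 8mer. Among 15069 genes with a UTR and a mean of at least 10, the median log2 ratio was -0.013 for 607 genes with an 8mer, -0.010 for 887 with a 7mer-m8, -0.019 for 938 with a 7mer-A1 and -0.040 for 12637 with none. Genes with an 8mer had a higher mean at an unadjusted p under 0.05 in 3.46% of cases, against 4.05% of those with no match. For miR-224-5p, whose seed differs, 411 genes with its 8mer (GTGACTTA) had a median of -0.020 and genes with none -0.044. The 8mer of miR-452-3p (GAGACTGA) gave a median of -0.001 over 600 genes.

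UTR length moved with the match and with the ratio. The median UTR was 2600 bases for genes with a miR-452-5p 8mer and 893 for those without a match. Over all genes cut into 5 classes of nearly equal size by UTR length, the median log2 ratio was -0.126 in the class with the shortest UTRs and -0.004 in the class with the longest. Within the longest class it was -0.001 for 316 genes with an 8mer and -0.004 for 1838 with none, and within the next longest -0.040 for 156 and -0.016 for 2365. By library, the median of genes with an 8mer minus that of genes with none was 0.100, -0.039, 0.026 and 0.056 in antimiR-452 libraries 1 to 4, each relative to the mean of the controls. These values are descriptions, with no test across genes.

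**Figure D5:**
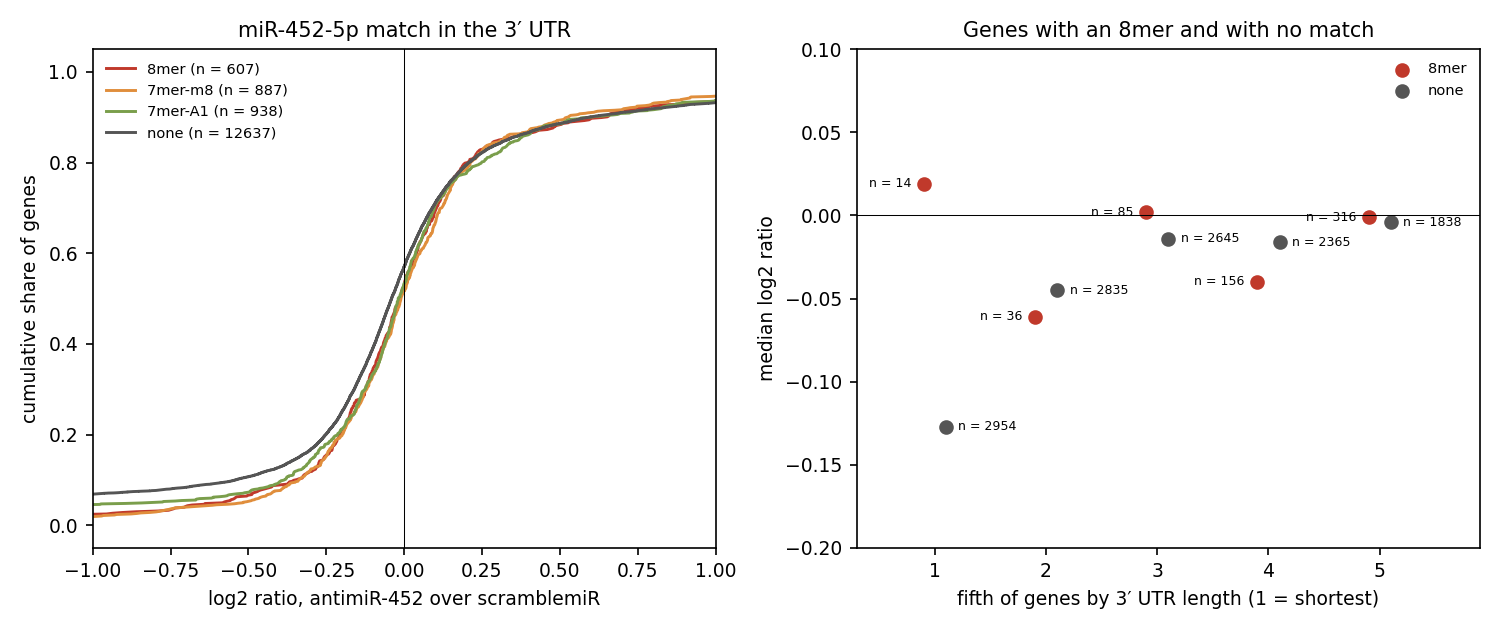
Left, cumulative share of genes against the log2 ratio of antimiR-452 over scramblemiR by kind of miR-452-5p match, drawn from -1 to 1; right, the median log2 ratio of genes with an 8mer and with no match within each of 5 classes of genes by 3′ UTR length. In the longest class the medians are -0.001 with an 8mer and -0.004 without a match.

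Of the 5 genes whose sites are printed above, Hnf4a, Sall1, Ccl28 and Shank2 split by library like the epithelial genes, and Dab2 could not be resolved. Hnf4a, a transcription factor of liver, kidney and gut epithelia, had 980.7, 1124, 1122 and 67.72 normalized counts with antimiR-452, against 22.14, 45.42, 43.06 and 207.4 with scramblemiR. Sall1, a kidney development factor gene, had 432.2, 551.4, 398 and 4.441, against 9.741, 17.98, 7.352 and 56.79. The mucosal chemokine gene Ccl28 had 825.6, 1255, 1104 and 31.08, against 54.91, 56.78, 31.51 and 212.1. In each, libraries 1 to 3 were above all controls and library 4 was not. Shank2, a scaffold protein gene, had 293.2, 298.5, 230.2 and 18.87, against 33.65, 74.76, 28.36 and 41.72. Dab2, an endocytic adaptor gene that pairs with megalin, averaged 4554 with antimiR-452 in the authors' deposited table, against 2008, 2436, 2063 and 2088 in scramblemiR libraries 1 to 4 (adjusted p 0.221 there). These genes were chosen for a small p, so their values do not bear on the class of matched genes. Wnt5a, reported as a miR-452 target, had none of the 3 motifs in its 3′ UTR of 4508 bases and a log2 ratio of -0.04, and Bmi1 had a 7mer-A1.

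Brown fat of mice given antimiR-452 had its own scramblemiR controls and showed the epithelial genes at low levels. Of the 636 higher genes of white fat, 575 had a ratio there, genes at 0 in 1 group included, and 316 lay above 0. The median log2 ratio was 0.056 over the genes among them that were not at 0 in either group. Of the 636, 4 had an unadjusted p under 0.05 in brown fat. There 121 of 24248 genes with a ratio (0.499%) had such a p in the authors' deposited table. B4galnt2 averaged 0 normalized counts with antimiR-452 and 1.27 with scramblemiR in brown fat, and Dsp 1.24 and 0.742. Erythroid genes had a median of 0.51 there, against -2.80 in white fat, and Hbb-bt averaged 1486 and 628. The difference between the tissues was not tested. White fat of mice given antimiR-224 was compared with the same 4 scramblemiR libraries, so likeness between the 2 comparisons is no result. Side by side, B4galnt2 averaged 143 with antimiR-224 and 3.21 with scramblemiR in that table, Dnah5 averaged 536 and 28.1, Atp6v0a4 averaged 345 and 65.2, and Hbb-bt averaged 2046 and 4009.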

How the data were processed

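RNA was extracted with Trizol, selected on oligo-dT beads and made into directional libraries, per the labels' protocols. DESeq 1.10.1, R 2.15.3 and the build GRCm38.p4 are named in the submitters' processing notes, while the aligner, counter and strand setting, not given in the sources used here, were not checked. The authors deposited a mean signal for each group (normalized counts averaged over 4 libraries), the ratio (fold) of the means, its log2 value, a p-value and an adjusted p-value, per the file headers. Recomputed log2 values and Benjamini-Hochberg p-values differed from the deposited ones by at most 2.67e-14 and 9.26e-14. No column was left unmapped.

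A printed mean is a sum of whole read numbers divided by 4 size factors. These were solved and every mean decoded, with 100% of scramblemiR and 91.98% of antimiR-452 genes unique, with none of the 1278 most abundant genes among them. Rebuilt means matched within 5.1e-15, and the decoder and limma were tested on simulated data. The simulated libraries for limma had a spread that followed the mean and none that stood apart. That test therefore does not cover libraries that stand apart, as found here. No pair of libraries of a group agreed within sampling noise (chi-square per degree of freedom at least 12.64). A test made for counts had been foreseen for deposited counts and was not run, since the abundant genes are missing. Instead limma 3.58.1 in R 4.3.3 was run on log2(normalized count + 1), with trend and robust variance, Benjamini-Hochberg adjustment, a threshold of 0.05 and a minimum mean of 10. A log2 change on this scale understates that of low genes.

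Symbols matched 99.42% of identifiers. The longest 3′ UTR of each gene was read from the GENCODE M21 basic annotation. Named genes were, among genes with a symbol and a mean of at least 10, the 12 higher and 12 lower with the smallest deposited p, the 6 higher and 6 lower non-overlapping with the smallest limma p, Gabre, the 3 most abundant, the 5 with a miR-452-5p 8mer and the smallest p, and up to 4 members of a list, taken from those with the smallest p, extreme ratio or highest mean. Slc2a4, Bmi1, Wnt5a, Krt8, Krt18, Ago4, Tpsb2 and Crisp1 were chosen after their values were seen. The members and the 31 lists were chosen with earlier results of these data known.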

Additional observations from a re-analysis of the deposited data

Results flagged for a closer look

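Dixon's test at 95% marked 23 of 133 groups of 4 libraries. In these the gap between an extreme library and its nearest neighbour took most of the group's range. For independent groups of normally distributed values, about 1 in 20 would be marked. The groups here hold untransformed counts, share libraries and include genes picked for a small p, so the 23 cannot be set against that rate. AntimiR-452 library 4 was apart for Dnah9 (4.441 normalized counts, against 679.9 to 701.6 in the other 3), Hnf4a (67.72, against 980.7 to 1124) and Aig1 (210.9, against 344.2 to 370.7). ScramblemiR library 4 was the high one for Fam216b (16.22), Srd5a2 (24.34), Pkhd1 (49.83), Kl (44.04), Dsp (154.1), Tmem132b (100.8), Dnah11 (90.39), Rsph4a (47.51), Hnf4a (207.4) and Ccl28 (212.1).

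ScramblemiR library 2 was apart in the summed levels of male germ cell genes (42265, against 289.6 to 571.3), lymphocyte genes (2793), smooth muscle and pericyte genes (2699), epididymis genes (600) and, on the low side, the 1 resolved citric acid cycle gene (791.1, against 1362 to 1478). In the antimiR-452 group, library 1 was apart for epididymis genes (3925, against 15.54 to 163.5) and, on the low side, for oxidative phosphorylation (10151), library 2 for lymphocyte genes (3385) and library 3 for skeletal muscle genes (13367). ScramblemiR library 1 was apart for 1500015O10Rik (49.59, against 24.6 to 26.65).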

How the results depend on the processing

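No gene was called by limma under pseudocounts of 0.5 and 5, no minimum or a minimum mean of 50, variance that was not robust, quantile normalization or median centring, and none by the deposited test at any minimum. Leaving out 1 library gave 0 to 522 calls, with 522 without antimiR-452 library 4 and 0 otherwise. Leaving out antimiR-452 library 4 and scramblemiR library 2 together, chosen after the data were seen, gave 1117 calls, 1083 of them higher. At an unadjusted p under 0.05 limma had 709 genes, and 1096 with no minimum, where 26748 genes were tested; leaving out 1 library gave 316 to 1758 (1143 without scramblemiR library 2, 1758 without antimiR-452 library 4), and the pair together 2884. All 32 named genes that limma tested kept their direction under every alternative that tested them, and 24 were called without antimiR-452 library 4. Of 31 lists, 14 had a median above 0 over all members. With 1 library left out, the median was taken over resolved members only, and 12 to 19 of the 30 lists with such members were above 0. These counts and the 14 thus differ in members as well as in libraries, and the part of the library left out cannot be read from them. The seed-match difference was 0.027, and 0.024 at a minimum mean of 50. No paired analysis was possible because recovered libraries cannot be tied to the replicate numbers of the titles. Depth limits genes near 0: a count of 0 allows 2.53 to 3.48 normalized counts in a library.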
